A study of Mus musculus with 11 samples.

Results

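The report concerns 3 genes that lie side by side on mouse chromosome 5, Rundc3b, Abcb1a and Abcb1b, out of 22180 genes measured. They were selected on their log2 levels on these same arrays, which stepped up from AI-7-54 to AI-8-45 to AI-9-54, and were matched by symbol in the platform's probe table, which gives each of them 1 probe set (17445525, 17434524 and 17434555). Because all 3 comparisons between compounds were used for that choice, the levels of these 3 genes are described below and carry no test.

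The arrays measured total RNA of line 720, a single mouse cell line of T-cell acute lymphoblastic leukaemia that arose in a Tcf12+/- mouse carrying a Tal1 transgene under the Lck promoter, which is active in T-lineage cells. All groups share that background. The treatments differ by compound, and each lasted 8 h. Per the labels all 3 compounds inhibit the Runt domain, with which RUNX proteins bind DNA. The groups are AI-7-54 at a dose of 100 µM with 3 arrays (replicates 1, 3 and 4), AI-8-45 at the same dose with 4 arrays, and AI-9-54 at the lower dose of 50 µM with 4 arrays. Untreated or vehicle-treated cells are not analysed here, so "higher" always means higher than after another compound. Compound and dose cannot be told apart in comparisons with AI-9-54. Nothing in the labels says that replicates were separate cultures, so p-values are set against array-to-array spread that may be purely technical.

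Values are log2 levels of 1 probe set. A difference of 1 on this scale is a doubling, and levels of different genes cannot be set against each other. The number of arrays limits the precision. Array medians lay between 6.61 and 6.68, no background level was used, and a value near or below those medians is a dim signal rather than an absence. Of 10 measured T-lineage markers, the CD3 genes were bright (Cd3e at a mean of 13.0 over all arrays), while Cd4 (6.20) and Cd8a (5.68) lay below the array medians. Of 16 markers of B, myeloid, erythroid, stromal and endothelial cells, 10 lay below the array medians and the brightest was Pecam1 (11.3). None of these 16 passed the limma test in any comparison. Their mean level per array ranged from 6.69 to 6.78 after AI-7-54, from 6.71 to 6.77 after AI-8-45 and from 6.69 to 6.74 after AI-9-54. Of the T-lineage markers, Thy1, Cd2, Cd5 and Ptcra had lower levels under AI-9-54 than under AI-7-54, and 0 of 10 had higher ones, where 7.29% of all genes were lower and 6.87% higher. The mean level of the 10 per array ranged from 9.21 to 9.44 after AI-7-54, from 9.08 to 9.29 after AI-8-45 and from 8.91 to 9.07 after AI-9-54. The part of these changes in the results below was not tested.

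P-glycoprotein is an ATP-driven pump of the plasma membrane that exports many structurally unrelated drugs and so can make tumour cells resistant to them. Mice encode it with a pair of genes, Abcb1a and Abcb1b, where humans have ABCB1 alone. The adjoining Abcb4 belongs to the same family but encodes a phosphatidylcholine flippase best known from bile formation. Rundc3b encodes a protein with a RUN domain, a module found in proteins that interact with small GTPases. In cells selected for drug resistance this chromosomal region is a known site of amplification and of activated transcription, and its neighbour gene for the calcium-binding protein sorcin, Sri, is often amplified together with the pump.

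In the RefSeq gene table (assembly GRCm38.p6) the order along the chromosome is Slc25a40, Rundc3b, Abcb1a, the non-coding RNA gene Gm5106, Abcb1b, Abcb4 and Crot. Rundc3b lies on the minus strand, and its gene model overlaps that of Abcb1a, which lies on the plus strand like Abcb1b and Abcb4. Probe sequences were not used here, so signal shared between the related pump genes, or between the overlapping models, cannot be told apart, and the values of Abcb1a, Abcb1b and Abcb4 are uncertain as those of separate genes.

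The 250 bases before the start of each gene are shown because neighbouring genes that stepped up together have separate upstream sequences. They come from RefSeq (GRCm38.p6) and run 5′ to 3′ on the gene's own strand. The set of starts used here holds 1 for each of these 4 genes. The one for Abcb1a lies inside the overlapping gene model of Rundc3b. Other starts, and which start these cells used, were not examined. The windows are chr5:8622953-8623202 on the minus strand for Rundc3b, and on the plus strand chr5:8566841-8567090 for Abcb1a, chr5:8797897-8798146 for Abcb1b and chr5:8893471-8893720 for Abcb4. Capitals mark matches on either strand to the RUNX motif TGNGGT, the CCAAT box bound by NF-Y (CCAAT) and the GC box bound by Sp1-family factors (GGGCGG).
Rundc3b: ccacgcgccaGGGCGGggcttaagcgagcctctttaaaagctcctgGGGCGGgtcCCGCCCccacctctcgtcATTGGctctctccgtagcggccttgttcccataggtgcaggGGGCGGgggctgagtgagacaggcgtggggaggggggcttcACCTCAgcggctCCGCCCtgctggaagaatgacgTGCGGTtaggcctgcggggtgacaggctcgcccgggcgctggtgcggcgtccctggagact
Abcb1a: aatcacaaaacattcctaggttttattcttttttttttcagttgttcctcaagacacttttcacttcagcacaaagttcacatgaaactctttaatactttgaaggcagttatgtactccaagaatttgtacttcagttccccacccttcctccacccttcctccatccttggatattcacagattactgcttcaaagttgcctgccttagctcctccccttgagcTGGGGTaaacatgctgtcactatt
Abcb1b: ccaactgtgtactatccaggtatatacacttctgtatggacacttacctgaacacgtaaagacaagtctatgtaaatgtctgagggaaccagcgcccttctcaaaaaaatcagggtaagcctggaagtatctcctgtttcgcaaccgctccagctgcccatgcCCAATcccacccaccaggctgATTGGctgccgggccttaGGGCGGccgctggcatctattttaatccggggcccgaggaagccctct
Abcb4: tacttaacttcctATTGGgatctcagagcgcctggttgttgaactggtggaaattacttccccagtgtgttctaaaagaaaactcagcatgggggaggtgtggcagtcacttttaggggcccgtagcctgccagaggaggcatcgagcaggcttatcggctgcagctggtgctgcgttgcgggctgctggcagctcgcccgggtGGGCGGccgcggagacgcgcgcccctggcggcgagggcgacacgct

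The windows differ in composition. Rundc3b has 69.2% G and C, Abcb4 61.6%, Abcb1b 52.8% and Abcb1a 40.4%, against a median of 52.4% over 32851 upstream windows of the same length. The RUNX motif matched at 2 positions before Rundc3b (first bases -95 and -61, counted back from the start) and at 1 before Abcb1a (-24). It had no match in the windows of Abcb1b or Abcb4, which says only that these letters are not there. Among all windows, 40.1% hold at least 1 match, so a match is common. The CCAAT box matched at 2 positions before Abcb1b (-87 and -66), at 1 before Rundc3b (-177) and at 1 before Abcb4 (-237), and 33.8% of all windows hold it. The GC box matched at 5 positions before Rundc3b and at 1 each before Abcb1b (-48) and Abcb4 (-46), and 32.7% of all windows hold it. Abcb1a had neither. The E-box CANNTG (66.2% of all windows) matched at 2 positions before Abcb1a, at 2 before Abcb1b and at 1 before Abcb4. The AP-1 motif TGANTCA (6.75%) had no match, and the GATA motif GATAAG (6.55%) matched at 1 position before Abcb4. None of these motifs was found in all 4 windows.

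**Figure D1:**
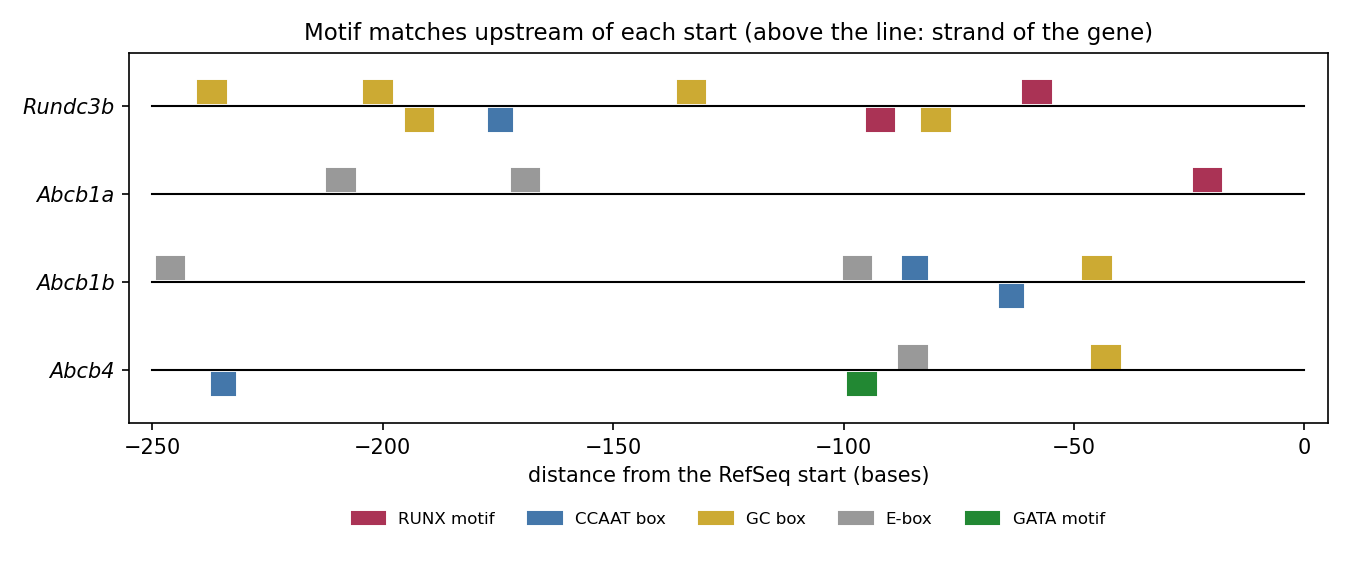
Positions of motif matches in the 250 bases before the RefSeq start of Rundc3b, Abcb1a, Abcb1b and Abcb4. The x axis is the distance from the start in bases. Boxes above a line are matches on the strand of the gene and boxes below it on the other strand. Rundc3b has 5 GC boxes, and none lies before the start used for Abcb1a, which is inside the Rundc3b gene model.

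Abcb1b had the widest steps of the 3 genes. Its log2 level was 8.54, 8.38 and 8.22 after AI-7-54 (replicates 1, 3 and 4). After AI-8-45 it was 9.59, 9.53, 9.30 and 9.50 (replicates 1 to 4), and after AI-9-54 it was 10.48, 10.62, 10.49 and 10.44. The groups did not overlap, and the spread within a group was small beside the steps (SD 0.16, 0.13 and 0.08). The mean was 8.38 after AI-7-54, 9.48 after AI-8-45 and 10.51 after AI-9-54. The log2 difference was 1.10 ± 0.08 (SE) between AI-8-45 and AI-7-54 and 1.03 ± 0.08 between AI-9-54 and AI-8-45, so both steps were about a doubling (2.15-fold and 2.04-fold). Between AI-9-54 and AI-7-54 it was 2.13 ± 0.08, or 4.37-fold. Ranked by the size of a higher level among all 22180 genes, Abcb1b stood at place 2, 7 and 4 in these comparisons.

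Abcb1a, the other P-glycoprotein gene, stepped up mainly between AI-8-45 and AI-9-54. Its level was 6.89, 6.96 and 6.97 after AI-7-54, close above the array medians. It was 7.03, 7.29, 7.24 and 7.23 after AI-8-45, and 7.83, 7.85, 8.13 and 7.94 after AI-9-54. The groups did not overlap, but AI-8-45 replicate 1 (7.03) lay just above the highest AI-7-54 array (6.97). The log2 difference was 0.26 ± 0.08 (SE) between AI-8-45 and AI-7-54, 0.74 ± 0.07 between AI-9-54 and AI-8-45 and 1.00 ± 0.08 between AI-9-54 and AI-7-54. The step from AI-7-54 to AI-8-45 made up 26.1% of the total difference for Abcb1a and 51.8% for Abcb1b. In rank, Abcb1a stood at place 516 between AI-8-45 and AI-7-54, at 21 between AI-9-54 and AI-8-45, and at 38 between AI-9-54 and AI-7-54.

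Rundc3b had the tightest replicates of the 3 genes, with a pooled SD of 0.0634 against 0.110 for Abcb1a and 0.121 for Abcb1b. Its level was 10.34, 10.45 and 10.36 after AI-7-54, then 11.20, 11.17, 11.19 and 11.16 after AI-8-45, and 11.76, 11.81, 11.63 and 11.63 after AI-9-54. No array of a group reached into the next group, and the SD was 0.06, 0.02 and 0.09. The log2 difference was 0.80 ± 0.05 (SE, 1.74-fold) between AI-8-45 and AI-7-54, 0.53 ± 0.05 (1.44-fold) between AI-9-54 and AI-8-45, and 1.32 ± 0.05 (2.50-fold) between AI-9-54 and AI-7-54. The step from AI-7-54 to AI-8-45 made up 60.2% of the total. The gene stood at place 4, 46 and 18 of all genes in these comparisons.

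**Figure D2:**
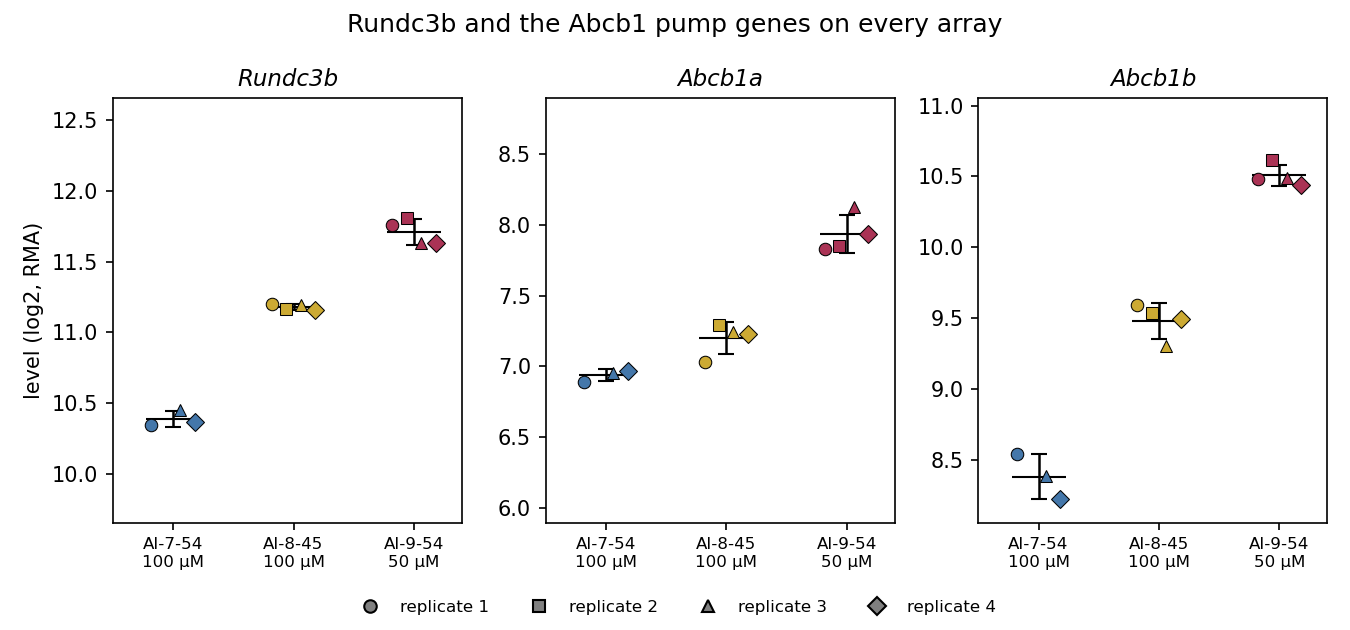
Log2 level (y axis, RMA) of Rundc3b, Abcb1a and Abcb1b on each of 11 arrays by compound and dose. Symbols are replicates, bars are the group mean ± SD, and each y axis spans the same 3 log2 units, so that the steps of Abcb1b (mean 8.38, 9.48 and 10.51) appear wider than those of Abcb1a (6.94, 7.20 and 7.94).

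All 3 genes thus had every AI-8-45 array above every AI-7-54 array and every AI-9-54 array above every AI-8-45 array, the property for which they were chosen. Of 22180 genes, 287 (1.29%) had that rising order without overlap. Deviations of these 3 genes from their group means, which the choice did not use, did not run in parallel. Over 11 arrays the Pearson correlation of the deviations was 0.20 between Rundc3b and Abcb1b, -0.41 between Abcb1a and Abcb1b and -0.55 between Rundc3b and Abcb1a. With the adjoining Abcb4 it was 0.79 for Rundc3b, 0.45 for Abcb1b and -0.36 for Abcb1a. These values are given as a description of points that share arrays and group means. The labels name no batch, but over all genes deviations ran together within replicates 1 and 2 and within replicates 3 and 4 of different compounds (r from -0.02 to 0.49) and not across these sets (r from -0.48 to 0.01). Deviations from a group mean cancel within the group, so running together within sets by itself lowers the values across sets. The values across sets are thus no separate observation. The difference between AI-9-54 and AI-7-54 within replicates 1 and 2 and within replicates 3 and 4 was 2.01 and 2.16 for Abcb1b, 0.95 and 1.07 for Abcb1a, and 1.44 and 1.22 for Rundc3b. Between AI-8-45 and AI-7-54 it was 1.02 and 1.10 for Abcb1b, 0.27 and 0.27 for Abcb1a, and 0.84 and 0.77 for Rundc3b. Between AI-9-54 and AI-8-45 it was 0.98 and 1.07, 0.68 and 0.80, and 0.60 and 0.46 in the same gene order.

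Higher levels were not limited to the chosen genes and extended to the genes directly beside them. The 10 measured genes nearest on each side were taken by position and tested with limma across all genes, with Benjamini-Hochberg adjustment and a threshold of 0.05. Between AI-9-54 and AI-7-54, 5 of these 20 neighbours were higher (Slc25a40, Abcb4, Crot, Tmem243 and Dmtf1) and 1 was lower (Zfp804b), where 6.87% of all genes were higher and 7.29% lower. The higher genes form an unbroken run with the members among the measured genes of the table, from Slc25a40 to Dmtf1, and the next gene on each outer side, Dbf4 and Elapor2, did not pass. The median difference over the 20 neighbours was 0.02, against -0.0014 over all genes. Between AI-8-45 and AI-7-54, 2 of 20 (Abcb4 and Crot) were higher and 0 lower, where 2.13% of all genes were higher and 3.53% lower. Between AI-9-54 and AI-8-45 the same 2 genes were higher and 0 lower, where 0.708% of all genes were higher and 0.6% lower. These comparisons share arrays and are not independent of each other. Of the 20 neighbours, 14 had a mean below the array medians, and of these Abcb4 was higher and Zfp804b lower. Of the 6 above them, 4 were higher between AI-9-54 and AI-7-54. Bright genes were called more often, so the 6.87% over all genes is too low a share to set beside these 6. A fit on genes above the median of all genes called 3498 in both directions together, against 3139 of all 22180 genes.

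**Figure D3:**
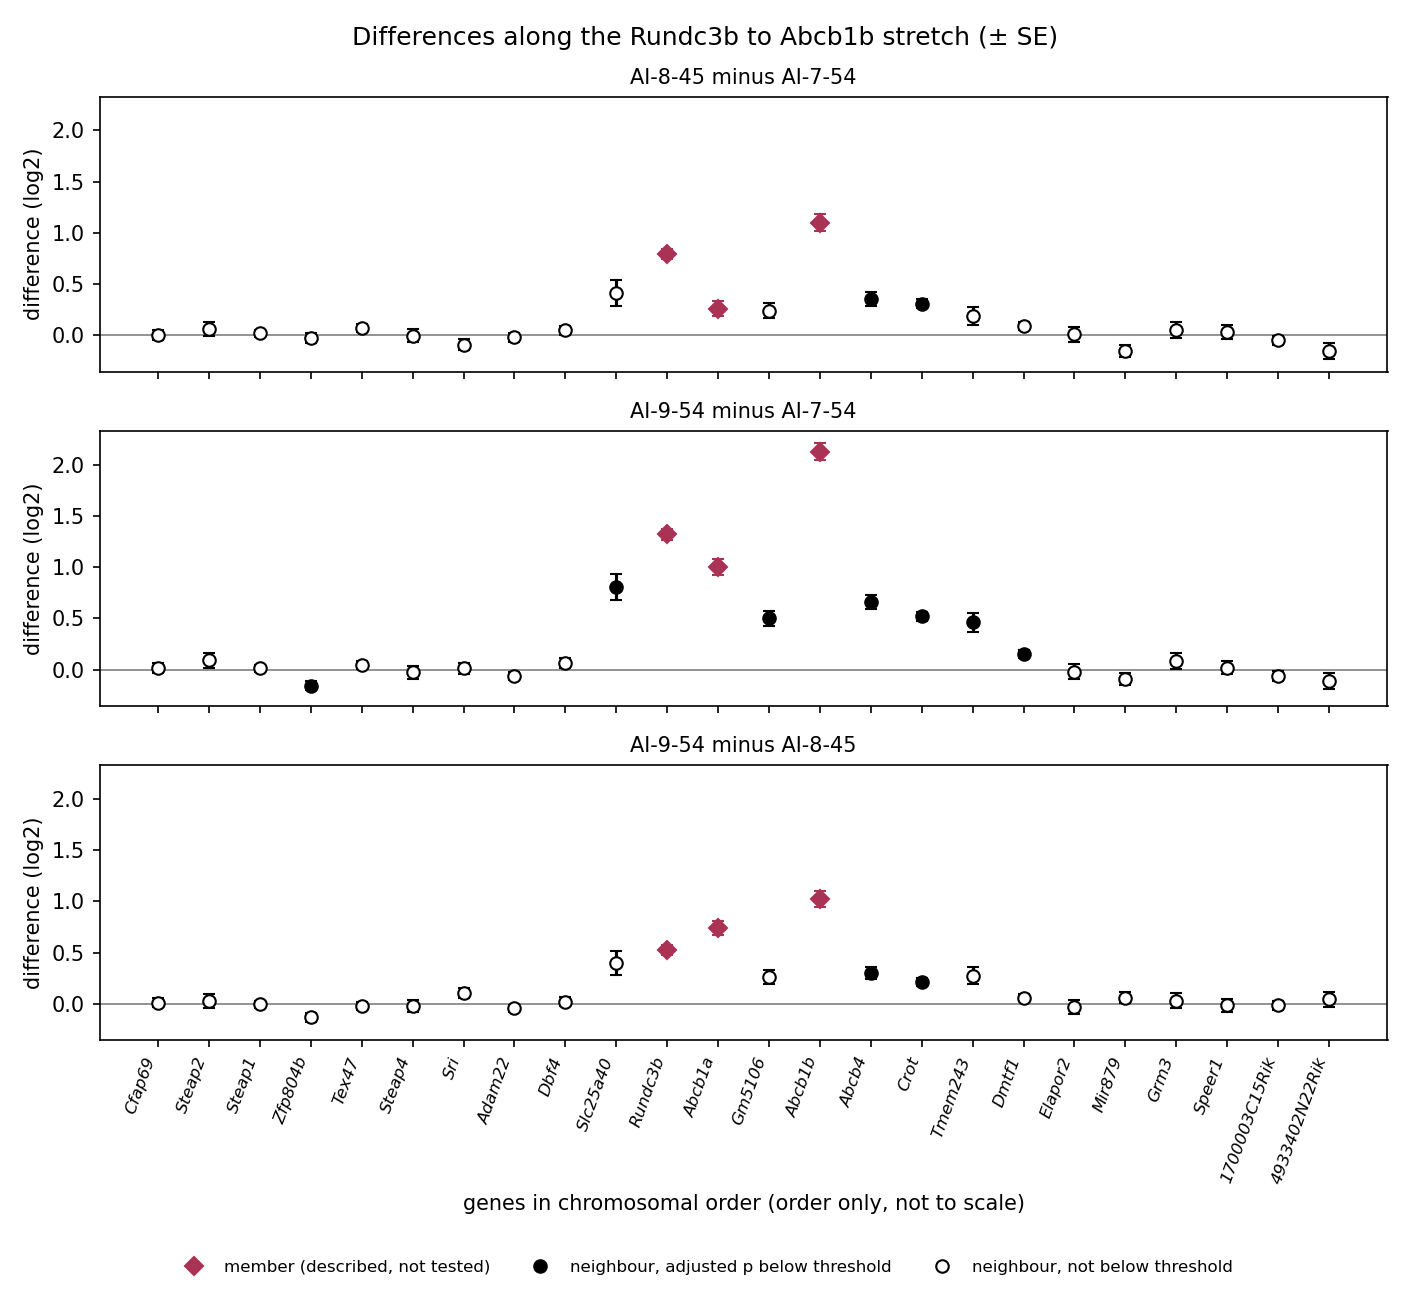
Log2 differences (y axis, ± SE) of 24 genes in chromosomal order for the 3 comparisons. Diamonds are the 3 chosen genes, filled circles passed limma's adjusted threshold and open circles did not. In the middle panel filled circles run without a gap from Slc25a40 to Dmtf1 around the diamonds, and outside that stretch Zfp804b (-0.16) alone is filled.

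Abcb4, the flippase gene next to Abcb1b, was at 6.02, 6.19 and 5.98 after AI-7-54. It was at 6.46, 6.38, 6.39 and 6.47 after AI-8-45, and at 6.69, 6.89, 6.68 and 6.64 after AI-9-54. These groups did not overlap, but the values after AI-7-54 and AI-8-45 lie below the array medians, so no fold is given. The log2 difference was 0.66 ± 0.07 (SE, limma adjusted p 4.78e-05) between AI-9-54 and AI-7-54 and 0.36 ± 0.07 (adjusted p 0.00842) between AI-8-45 and AI-7-54. The latter call ended without AI-7-54 replicate 4 (adjusted p 0.0509). Between AI-9-54 and AI-8-45 the difference was 0.30 ± 0.06 (adjusted p 0.0382), and this call was lost when any 1 array but AI-7-54 replicate 3 was left out (adjusted p up to 0.101).

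Crot encodes the peroxisomal carnitine octanoyltransferase, which handles medium-chain acyl groups. Its level was 9.74, 9.73 and 9.68 after AI-7-54, then 10.04, 9.96, 10.02 and 10.08 after AI-8-45, and 10.21, 10.25, 10.28 and 10.20 after AI-9-54. No arrays overlapped between groups. It was 0.52 ± 0.04 higher (SE, limma adjusted p 1.02e-05) between AI-9-54 and AI-7-54, 0.31 ± 0.04 (adjusted p 0.00147) between AI-8-45 and AI-7-54 and 0.21 ± 0.04 (adjusted p 0.0278) between AI-9-54 and AI-8-45. Leaving out 1 array ended the last call for 6 of 11 arrays (adjusted p up to 0.0841).

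Slc25a40, on the other side of Rundc3b, encodes a mitochondrial carrier linked to glutathione import. Its level was 9.34, 9.15 and 9.11 after AI-7-54, then 9.69, 9.71, 9.63 and 9.41 after AI-8-45, and 10.16, 10.30, 9.80 and 9.76 after AI-9-54. Within each compound, replicate 1 lay above replicates 3 and 4. The gene was 0.81 ± 0.13 higher (SE, limma adjusted p 0.00095) between AI-9-54 and AI-7-54, and 0.89 and 0.65 within replicates 1 and 2 and within replicates 3 and 4. Between AI-8-45 and AI-7-54 (0.41, adjusted p 0.0817) and between AI-9-54 and AI-8-45 (0.39, adjusted p 0.152) it did not pass. With a model term for replicate set (replicates 1 and 2, or 3 and 4) it passed in both (adjusted p 0.00828 and 0.00663), and the former also passed without AI-9-54 replicate 2 (0.044).

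Tmem243, which encodes a small membrane protein, was 0.46 ± 0.09 higher (SE, limma adjusted p 0.00485) between AI-9-54 and AI-7-54 (8.76 ± 0.18, SD, n = 4, against 8.29 ± 0.14, n = 3). It did not pass in the other comparisons, but with the replicate set in the model it did (adjusted p 0.0491 between AI-8-45 and AI-7-54 and 0.0209 between AI-9-54 and AI-8-45). Dmtf1 encodes a Myb-like transcription factor that binds D-type cyclins. It differed by only 0.15 ± 0.04 (adjusted p 0.0207) between AI-9-54 and AI-7-54, a call lost without AI-7-54 replicate 3 (adjusted p 0.0958) or replicate 4 (0.0885). Zfp804b, a dim zinc finger gene, was lower in that comparison by a log2 difference of -0.16 ± 0.05 (adjusted p 0.042), and leaving out 1 array ended this call for 9 of 11 arrays (adjusted p up to 0.135).

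Gm5106 lies between the pump genes and was singled out for that position after its values were seen. Its mean level was 5.97 after AI-7-54, 6.21 after AI-8-45 and 6.47 after AI-9-54, below the array medians throughout. It was 0.50 ± 0.07 higher (SE, limma adjusted p 0.000733) between AI-9-54 and AI-7-54 and did not pass in the other comparisons. With the replicate set in the model it passed in those as well (adjusted p 0.0212 between AI-8-45 and AI-7-54 and 0.00936 between AI-9-54 and AI-8-45).

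Dbf4 adjoins Slc25a40 on its outer side, and Sri lies beyond Dbf4 and the dim Adam22. Both Dbf4 and Sri are bright. Dbf4, the activating subunit of the replication kinase CDC7, was at 10.68 ± 0.07 (SD, n = 3) after AI-7-54, 10.72 ± 0.06 (n = 4) after AI-8-45 and 10.74 ± 0.02 (n = 4) after AI-9-54. Its difference between AI-9-54 and AI-7-54 was 0.07 ± 0.05 (SE, limma adjusted p 0.472). Sri was at 10.85 ± 0.03, 10.76 ± 0.04 and 10.87 ± 0.09, with a difference of 0.01 ± 0.05 (adjusted p 0.929). All 3 groups overlapped for both genes.

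**Figure D4:**
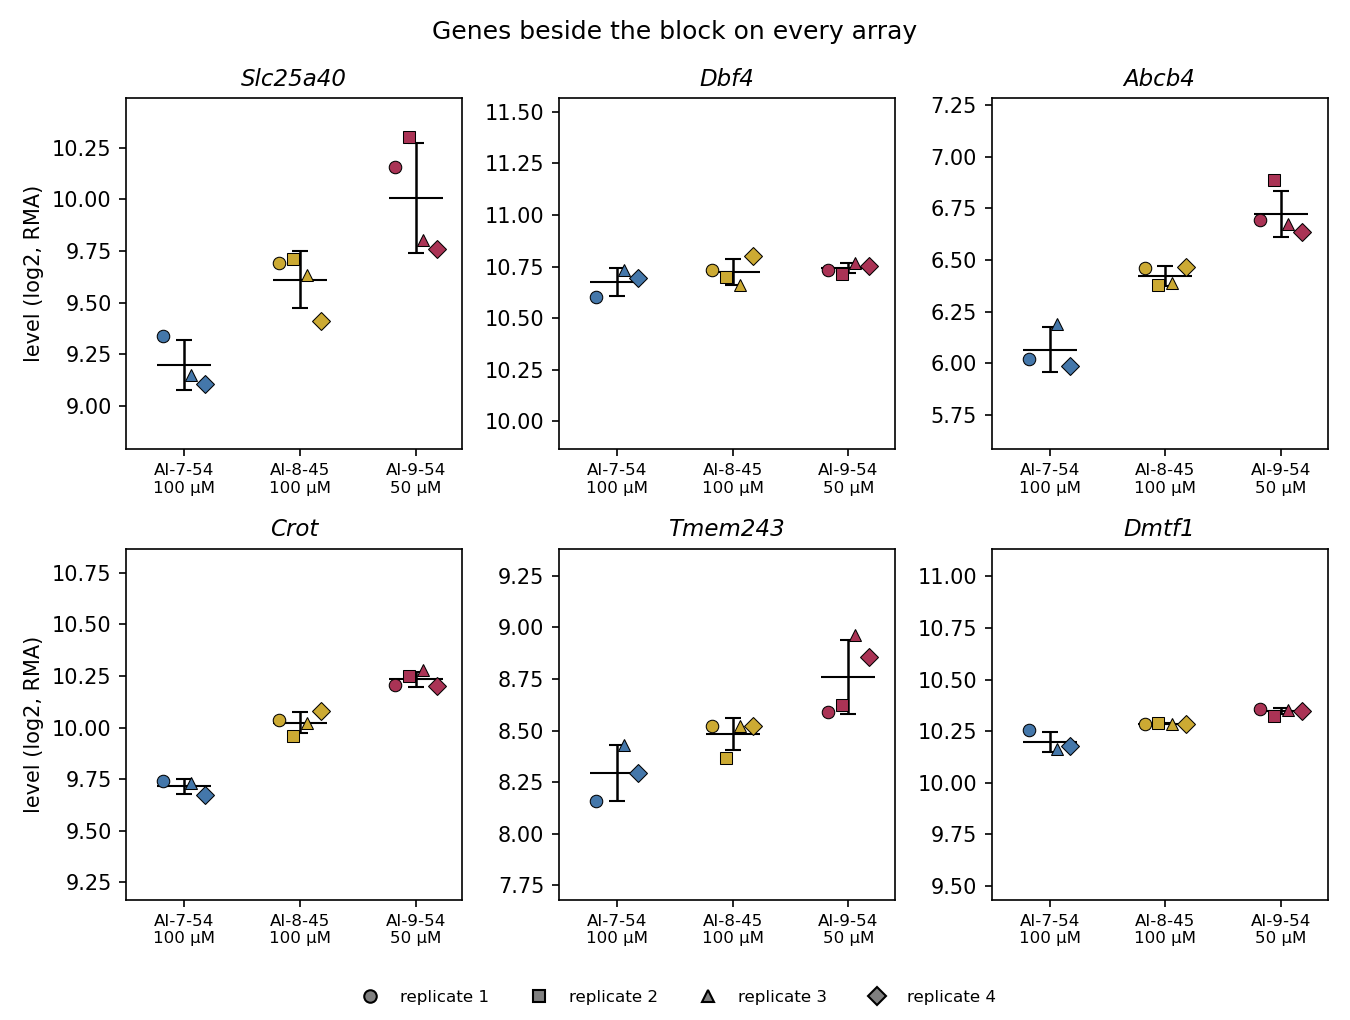
Log2 level (y axis, RMA) of Slc25a40, Dbf4, Abcb4, Crot, Tmem243 and Dmtf1 on 11 arrays by compound and dose. Symbols are replicates, bars are the group mean ± SD, and each y axis spans the same range. Crot steps up without overlap from 9.72 to 10.02 to 10.23, and Dbf4 stays between 10.60 and 10.80 on all arrays.

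Other drug exporters were examined to see whether the higher pump levels extended to their class. Of 15 measured transporters on a list of ABC pumps and related exporters, 5 were higher (Abcb4, Abcc1, Abcc5, Abcc10 and Abca3) and 2 lower (Abcc4 and Abca2) between AI-9-54 and AI-7-54, beside 6.87% and 7.29% of all genes. The median difference was 0.02, against -0.0014 over all genes. Abcb4 is also among the neighbours above, so both counts hold it in every comparison. Abcc1, the glutathione-conjugate exporter MRP1, was 0.46 ± 0.08 higher (SE, limma adjusted p 0.00229), though 0.26 within replicates 1 and 2 and 0.62 within replicates 3 and 4. The cyclic nucleotide exporter gene Abcc5 was 0.32 ± 0.05 higher (adjusted p 0.000551) and Abcc10 0.32 ± 0.06 higher (adjusted p 0.00517). Abcc4, which also exports cyclic nucleotides, was lower (-0.46 ± 0.06, adjusted p 0.000475). Abca2, a transporter of late endosomes and lysosomes, was lower too (-0.22 ± 0.05, adjusted p 0.0168), though not without any 1 of the 3 AI-7-54 arrays (adjusted p up to 0.057). Slc47a1, for a multidrug and toxin extrusion transporter, had a large difference with wide replicates and did not pass (0.63 ± 0.20, adjusted p 0.0537, groups not overlapping). With the replicate set in the model it passed against AI-7-54, both for AI-9-54 (adjusted p 3.57e-05) and for AI-8-45 (0.0002). It was singled out after its values were seen. Abcg2, the breast cancer resistance protein gene, was dim (mean 4.92) and differed by -0.03 ± 0.04 (adjusted p 0.757). Between AI-8-45 and AI-7-54, Abcb4 and Abcc5 (0.19, adjusted p 0.0275) were higher and Abcc4 was lower (-0.34, adjusted p 0.00819), beside 2.13% of all genes higher and 3.53% lower. The call of Abcc5 ended for 6 of 11 arrays left out (adjusted p up to 0.143), and 1 of 15 was called without AI-7-54 replicate 4. Between AI-9-54 and AI-8-45, Abcb4 and Abcc1 (0.35, adjusted p 0.0412) were higher and 0 were lower, beside 0.708% and 0.6% of all genes. When any array was left out, 0 or 1 of 15 was called.

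Factors known for a role at multidrug pump promoters, together with the RUNX factors, formed a list of 37 genes, of which 31 were measured. Between AI-9-54 and AI-7-54, 7 were higher and 2 lower, beside 6.87% and 7.29% of all genes. The median was 0.01, against -0.0014 over all genes, and the 9 calls fell to 4 without AI-7-54 replicate 1. All of the 31 but Nr1i2 and Nr1i3 had means above the array medians, and bright genes were called more often. A fit on genes above the median of all genes called 3498 in both directions together, against 3139 of all 22180 genes. The shares over all genes are therefore low for a list this bright. The forkhead gene Foxo1 was 0.59 ± 0.09 higher (SE, limma adjusted p 0.000578, and 0.45 within replicates 1 and 2 against 0.73 within replicates 3 and 4). Its size depended on the processing, with 0.26 as the lowest difference among the alternative settings. Foxo3 was 0.31 ± 0.07 higher (adjusted p 0.0071). The hypoxia factor gene Hif1a was 0.48 ± 0.07 higher (adjusted p 0.000392, and 0.37 to 0.54 over the alternative settings). The glucocorticoid receptor gene Nr3c1 was 0.40 ± 0.04 higher (adjusted p 7.35e-05). The aryl hydrocarbon receptor gene Ahr was lower (-0.34 ± 0.08, adjusted p 0.0144), as was Ybx1 for the Y-box protein YB-1 (-0.23 ± 0.06, adjusted p 0.0155). Neither passed once AI-7-54 replicate 1 was removed (adjusted p 0.0635 and 0.0683), nor did Ybx1 once AI-7-54 replicate 4 was (0.073). Between AI-9-54 and AI-8-45, Nr3c1 (0.35, adjusted p 0.0011) and Hif1a (0.30, adjusted p 0.0358) were higher and 0 of 31 lower, beside 0.708% and 0.6% of all genes. The call of Hif1a ended for 7 of 11 arrays left out (adjusted p up to 0.115). Between AI-8-45 and AI-7-54, only the acetyltransferase gene Ep300 of the 31 passed (0.22, adjusted p 0.042), beside 2.13% of all genes higher and 3.53% lower, and its call ended for 9 of 11 arrays left out (adjusted p up to 0.195).

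The xenobiotic receptor genes Nr1i2 and Nr1i3, which induce the pump in liver and gut, were dim, below the array medians on average, and did not pass in any comparison. Nor did the NF-Y genes Nfya, Nfyb and Nfyc. Of the GC box factor genes, Sp1 did not pass in any comparison, whereas Sp3 was 0.15 ± 0.04 higher (SE, limma adjusted p 0.0185) between AI-9-54 and AI-7-54 alone. Of the RUNX genes, Runx1 did not pass between AI-9-54 and AI-7-54 (-0.22 ± 0.09, SE, limma adjusted p 0.157), Runx3 differed by 0.03 ± 0.08 (adjusted p 0.906), and the partner gene Cbfb by 0.02 ± 0.04 (adjusted p 0.85). The sign of the Runx3 and Cbfb differences depended on the setting. With the replicate set in the model, Runx1 passed as lower after AI-9-54 (adjusted p 0.000445 against AI-7-54 and 0.0119 against AI-8-45).

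**Figure D5:**
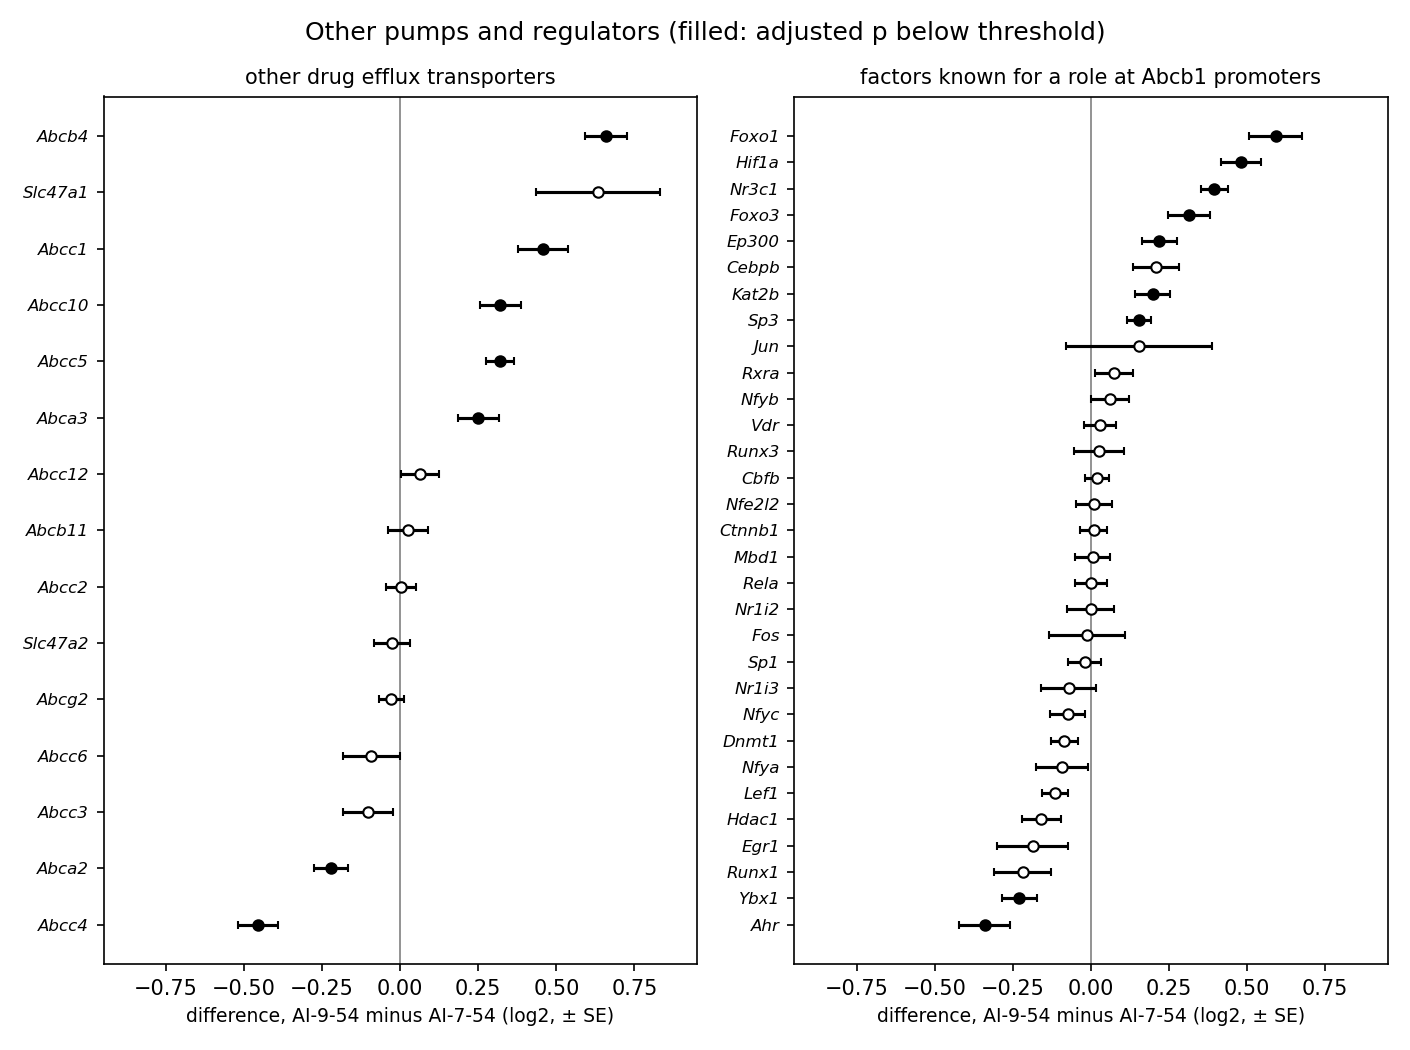
Log2 difference between AI-9-54 and AI-7-54 (x axis, ± SE) of 15 other drug exporters and 31 listed regulators. The latter are factors known for a role at multidrug pump promoters, together with the RUNX factors. Filled points passed limma's adjusted threshold. Filled points lie on both sides of 0 in either panel, from 0.66 for Abcb4 to -0.46 for Abcc4 and from 0.59 for Foxo1 to -0.34 for Ahr.

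The genes whose pattern was most like the mean of the 3 chosen genes over the 11 arrays were not among the neighbours above. Predicted and clone-named genes (symbols such as Gm and Rik) were left out of this ranking. So were microRNA, small nucleolar RNA, olfactory receptor and vomeronasal receptor families. Likeness was Pearson's r across arrays, which here mostly reflects the order of the compounds. The calcium-binding domain gene Efcab5 was closest (r = 0.993, Spearman's rho 0.918), with means of 7.18, 7.59 and 7.95 after AI-7-54, AI-8-45 and AI-9-54. Next came the arrestin-domain gene Arrdc3 (r = 0.989, rho 0.945), with means of 9.93, 10.56 and 11.39, followed by Tex2 (r = 0.988, rho 0.964), Crebl2 (r = 0.987, rho 0.936) and Ppp1r16b (r = 0.985, rho 0.893). The most opposite patterns were those of the lymphocyte surface antigen gene Ly6e (r = -0.993, rho -0.964), with means of 10.39, 10.12 and 9.74, the NF-κB inhibitor gene Nfkbie (r = -0.986, rho -0.855) and Scap (r = -0.984, rho -0.90), the escort of the SREBP sterol factors.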

How the data were processed

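Single-colour arrays of total RNA from 11 samples of line 720 were analysed. The authors deposited log2 values, 1 per probe set and array. RMA and Partek 6.6 are named per the submitters' processing notes. The scale was read from the values (3.23 to 13.8). Their settings, background levels, genome build and probe sequences are not given in the sources used here. Of 41345 probe sets, 23521 had 1 gene symbol, 1814 several and 16010 none here. Symbols were updated through Entrez identifiers (23328 matched, GRCm38.p6), and where probe sets shared a gene, the brightest on average stood for it, which left 22180 genes.

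All comparisons came from 1 limma 3.58.1 fit (R 4.3.3) on 11 arrays, two-sided, with Benjamini-Hochberg adjustment over all genes and calls at an adjusted p under 0.05. The fit was tested on simulated data. Members and lists were chosen with earlier results of these data known. Named are the members, neighbours that passed in any comparison with Abcb4, Slc25a40 and Dbf4, up to 4 called genes per direction of the other lists, Runx1, Runx3 and Cbfb, and the 5 most like and 3 least like genes. Sri, Abcg2, Slc47a1, Nr1i2, Nr1i3, Sp1, Sp3 and the NF-Y genes were added after their values were seen. Of 37 regulators, 6 (Runx2 and Trp53 among them) and of 17 exporters, 2 had no probe set of a single symbol. Alternatives were 2 scalings, 2 filters on dim genes, 2 treatments of probe sets, an intensity trend, array weights, the replicate number or replicate set in the model, the compared groups alone, and each array left out. Each replicate set by itself was added after seeing the data.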

Additional observations from a re-analysis of the deposited data

Results flagged for a closer look

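Tmem243 in AI-8-45 replicate 2 was at 8.37, while the other 3 arrays of that group all stood at 8.52. The flag sets the gap to the nearest array against the range of the group. With 3 equal values any other value is flagged, so it does not show that 8.37 was far off. Of 26 genes in the groups of 4 arrays, 52 gene and group combinations were tested in this way and 1 stood out, where chance gives about 1 in 20. Groups of 3 arrays cannot be tested. Without that array the difference of Tmem243 between AI-8-45 and AI-7-54 was 0.23, against 0.19 with it.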

How the results depend on the processing

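The differences of Rundc3b, Abcb1a and Abcb1b kept their sign under all 180 alternative values. Much of this was fixed in advance. Their groups do not overlap, so leaving out arrays cannot reverse a difference, and with 1 probe set a gene the treatments of probe sets change nothing. Of the 180 values, 4 moved by more than the spread between replicates, all of Rundc3b. These are the values within replicates 1 and 2 and within replicates 3 and 4, at 1.44 and 1.22 between AI-9-54 and AI-7-54 and 0.60 and 0.46 between AI-9-54 and AI-8-45. Counts of calls moved far more. Between AI-8-45 and AI-7-54, 1255 genes were called, against 1949 once the replicate set was a model term, 2 within replicates 1 and 2, 613 within replicates 3 and 4, and 540 (without AI-7-54 replicate 3) to 1229 with 1 array left out (622 without AI-7-54 replicate 4). Between AI-9-54 and AI-7-54 there were 3139, against 593 within replicates 1 and 2 and 2103 to 3290 with 1 array left out. Between AI-9-54 and AI-8-45 there were 290, against 436 among genes above the median, 816 with the replicate set, 141 from those groups alone, 6 and 143 within the sets, and 128 to 257 with 1 array left out. Same-numbered arrays did not all deviate together (r from -0.02 to 0.45, 6 of 10 over 0.1). Whether equal numbers mark arrays handled together is not in the labels, and these correlations cannot settle it. The main fit did not pair arrays by number. With the replicate number as a replicate block, 517 genes, 4 neighbours and 4 regulators were called between AI-9-54 and AI-8-45, and 3 regulators between AI-8-45 and AI-7-54. Of the 20 neighbours, 2 were called between AI-8-45 and AI-7-54 (4 with the replicate set, 0 and 1 within the sets, 1 to 3 with 1 array left out), 6 between AI-9-54 and AI-7-54 (3 within replicates 1 and 2, 4 to 6) and 2 between AI-9-54 and AI-8-45 (1 each with median scaling, either filter on dim genes and array weights, 4 with the replicate set, 0 from those groups alone and within either set, 0 to 2). Of the 15 exporters, the counts in the same order were 3 (5 with the set, 0 and 1 within the sets, 1 to 4), 7 (3 within replicates 1 and 2, 5 to 8) and 2 (1 each with median scaling, either filter and array weights, 0 from those groups alone and within either set, 0 to 1). Of the 31 regulators they were 1 (0 with median scaling and within replicates 1 and 2, 4 with quantile normalization, 3 and 2 with the filters, 2 each with an intensity trend and array weights, 5 with the set, 0 to 2), 9 (2 within replicates 1 and 2, 4 to 9) and 2 (1 with median scaling and from those groups alone, 6 with the set, 0 within either set, 1 to 2). The cause was not tested, apart from fewer arrays or genes where those define the setting. No called result reversed. Differences near 0 that were not called did change sign, among them those between AI-9-54 and AI-7-54 of Runx3 (-0.10 to 0.12) and Cbfb (-0.04 to 0.06) and that between AI-8-45 and AI-7-54 of Runx1 (-0.10 to 0.05). In addition, the depth of dim signals such as Abcb4 and Gm5106 over background is not known here.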
